A study of Mus musculus with 24 samples.

Results

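This report describes 36 genes of the cell cycle and mitosis in the adult mouse hippocampus during epileptogenesis. The members were given as a list of symbols, chosen by function and because the level of Top2a measured in rapamycin-treated mice had been seen to be low, and all 36 were found among the 55385 gene identifiers of the count files. They fall into 6 genes of replication licensing and the replication fork, 2 of nucleotide supply, 7 cyclins and their kinase, 2 of chromosome structure, 4 of the spindle checkpoint and the anaphase-promoting complex (APC), 6 mitotic kinases and passenger proteins, 8 of the spindle, kinetochore and cytokinesis, and the proliferation marker Mki67.

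RNA-Seq was performed on the hippocampus of 24 mice, 4 in each of 6 groups. All mice carried floxed Tsc1 alleles and received tamoxifen, and they were male and female and between 16 and 22 weeks old. The controls (Tsc1-Cre-, strain Tsc1f/f-Tg(Camk2a-CreERT2-)) lacked Cre and were taken on day 8 after the first tamoxifen injection. The Tsc1-Cre+ mice (Tsc1f/f-Tg(Camk2a-CreERT2+)) lost Tsc1 in neurons that express Camk2a and were taken on day 4, 6, 8 or 13, and a further Tsc1-Cre+ group was taken on day 13 after daily rapamycin, 10 mg/kg, from day 4. Cre is driven by a Camk2a promoter, so the deletion is limited to such neurons while the RNA comes from all hippocampal cells. Only the day 8 groups were taken on the same day as the controls. The study followed these time points because seizures begin around day 8 in this model, and it added rapamycin to find transcripts that depend on mTOR. Nothing in the labels states whether single mice had seizures.

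Replication begins when the MCM helicase is loaded on origins, and it is switched on by cyclin E and cyclin A with their kinases. Mitosis is driven by cyclin B with Cdk1, and its genes are transcribed together late in the cycle, largely from promoters with CCAAT boxes and a short element called the cell cycle genes homology region (CHR). In the adult hippocampus the cells that divide are mainly progenitors of the dentate gyrus, oligodendrocyte precursors, microglia and endothelial cells, whereas the neurons that express Camk2a have left the cycle. In bulk tissue a change in the number of cells of a type and a change in RNA per cell cannot be told apart.

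Totals per mouse ranged from 28208561 to 126435936 counts, with a median of 55582027. The deepest library was day 13 mouse B and the shallowest was rapamycin mouse A. Levels are given as CPM, counts scaled to 1000000 per library, after TMM scaling, and a gene was called at a Benjamini-Hochberg adjusted p under 0.05 with an absolute log2 fold change over 0.5 in edgeR's quasi-likelihood test. Tsc1 itself was at 103 to 109 CPM in the controls and at 57.4 to 81.7 CPM in the 20 Tsc1-Cre+ mice, with no overlap, as the labels state. Markers of hippocampal excitatory neurons (Camk2a, Slc17a7, Prox1 and Neurod6) summed to between 2263 and 3678 CPM in the 24 mice. The same mouse letter in different groups names different animals.

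The promoters of 6 called members are shown first, as examples of elements that many members share, and they are not those with the largest changes. RefSeq (GRCm38.p6) gives a window of 250 bases before to 50 bases after the start for 29 of the 36 members. Each window was searched on both strands for CCAAT, for the CHR letters TTTGAA or TTTAAA, and for the E2F letters TTTCCCGC, TTTCGCGC, TTTGCCGC or TTTGGCGC. CCAAT was found in 24 of the 29 windows (82.8%) and in 41.1% of the windows of all 27025 genes. A CHR was found in 21 (72.4%) against 30.6% of all genes, both elements in 19 (65.5%) against 12.2%, and an E2F site in 5 (17.2%) against 2.6%. A match of letters is a description and does not show that a factor binds.

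The stretches below end at the base before the RefSeq or GENCODE start, whichever lies further upstream, and capitals mark CCAAT and CHR letters on either strand. Top2a, Cenpf, Mki67, Ccnb2 and Cdk1 were called higher on day 8, on day 13 or on both, and Mcm6 was called lower on day 13. In these 6 stretches no CCAAT or CHR overlapped another.
Top2a (chr11:99024190-99024389, minus strand): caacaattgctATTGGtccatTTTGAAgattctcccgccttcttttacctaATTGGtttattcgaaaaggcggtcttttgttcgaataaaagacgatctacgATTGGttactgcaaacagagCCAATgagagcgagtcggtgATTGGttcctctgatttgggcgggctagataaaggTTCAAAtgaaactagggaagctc
Cenpf (chr1:189688087-189688246, minus strand): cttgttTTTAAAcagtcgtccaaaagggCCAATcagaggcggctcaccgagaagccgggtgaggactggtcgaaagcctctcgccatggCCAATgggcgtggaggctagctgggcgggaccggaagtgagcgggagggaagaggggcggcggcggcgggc
Mki67 (chr7:135716380-135716569, minus strand): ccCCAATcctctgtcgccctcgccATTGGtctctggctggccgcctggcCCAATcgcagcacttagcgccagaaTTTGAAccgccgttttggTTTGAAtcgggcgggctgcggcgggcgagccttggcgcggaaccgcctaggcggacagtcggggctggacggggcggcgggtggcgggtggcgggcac
Ccnb2 (chr9:70421555-70421724, minus strand): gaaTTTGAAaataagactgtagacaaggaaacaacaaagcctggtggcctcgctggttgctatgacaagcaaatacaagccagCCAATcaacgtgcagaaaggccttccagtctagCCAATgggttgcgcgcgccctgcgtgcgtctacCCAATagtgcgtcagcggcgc
Cdk1 (chr10:69352939-69353062, minus strand): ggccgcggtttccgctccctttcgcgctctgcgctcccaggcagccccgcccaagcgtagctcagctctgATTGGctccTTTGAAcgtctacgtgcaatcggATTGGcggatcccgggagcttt
Mcm6 (chr1:128359706-128359825, minus strand): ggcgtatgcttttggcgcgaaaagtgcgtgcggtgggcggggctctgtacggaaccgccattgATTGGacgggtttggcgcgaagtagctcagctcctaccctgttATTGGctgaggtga
The Top2a stretch holds 5 CCAAT and 2 CHR matches, that of Ccnb2 holds 3 and 1, and that of Mki67 holds 3 and 2. The Mcm6 stretch holds 2 CCAAT matches, 0 CHR matches and 3 E2F matches (in lower case here), of which the first 2 overlap on opposite strands, and the Cdk1 stretch holds 1 E2F match. Of the 9 members called on both day 8 and day 13, all 9 have a window, and 7 hold CCAAT, 7 a CHR and 6 both. Birc5 lacks CCAAT, Bub1 lacks a CHR and Melk lacks both in these windows, and none of these 3 is shown above.

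Against the controls, no member was called on day 4 or day 6. On day 8, 12 members were called higher and 0 lower, and on day 13, 13 were called higher and 4 lower. The 4 called lower were Mcm6, Tyms, Ccne2 and Smc2. Rrm2, Ccnb1, Top2a, Bub1, Bub1b, Birc5, Melk, Cenpf and Kif23 were called higher on both days, in comparisons that share their 4 controls. On the other side, 16 members were called in no tested comparison, among them the mitotic genes Plk1, Aurkb, Cdc20, Kif11 and Tpx2.

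**Figure D1:**
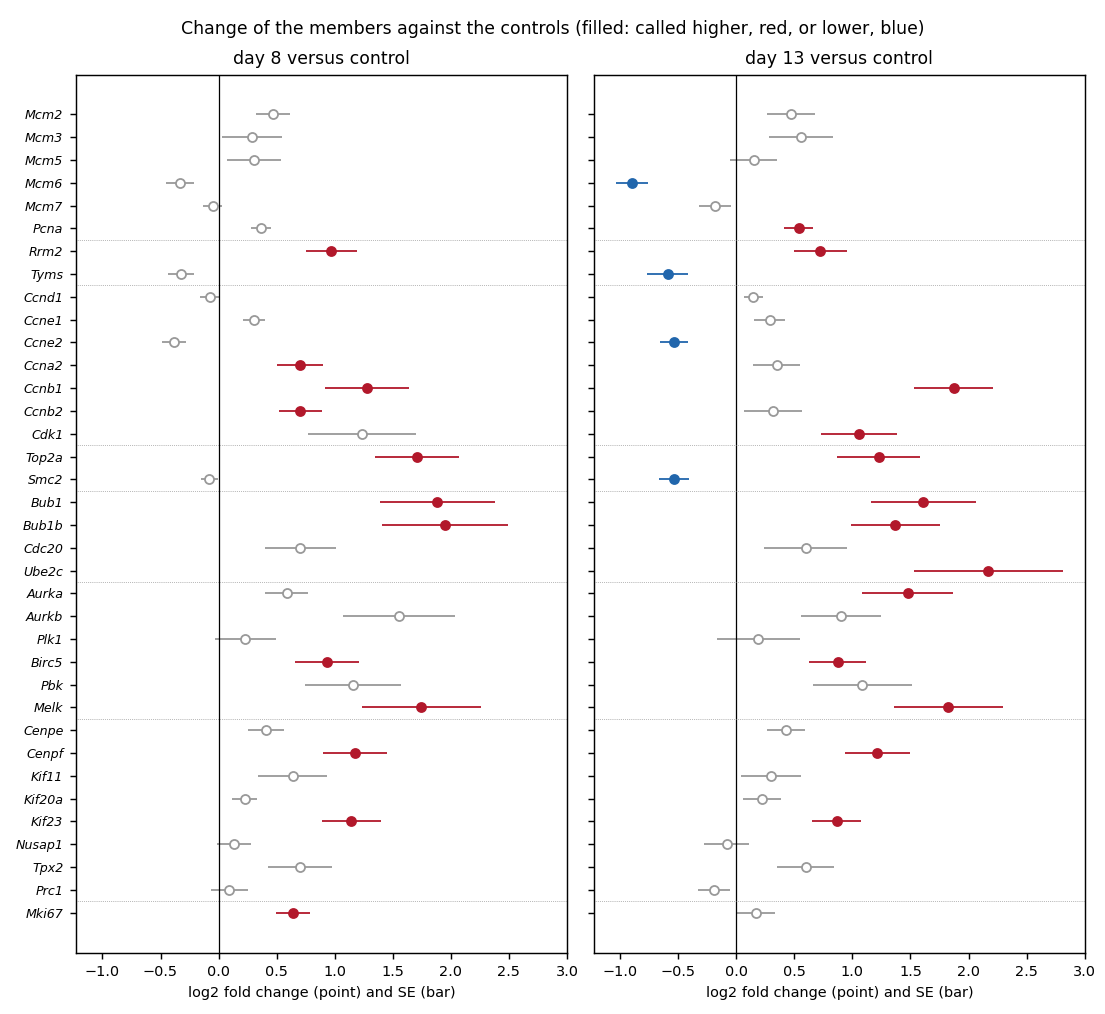
Log2 fold change against the 4 controls (horizontal axis, point, with its standard error as a bar) of the 36 members in the order of their roles, on day 8 (left) and day 13 (right), with filled points for called members. The 12 calls on day 8 all lie to the right of 0, while the 17 calls on day 13 hold 13 to the right and 4 to the left (Ube2c was not tested on day 8 and has no point there).

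On day 4, 33 members passed edgeR's filter on low counts (Bub1, Ube2c and Melk did not), and 0 were called by edgeR or DESeq2. In edgeR 6 of the 33 had an unadjusted p under 0.05, a share near that of all genes (4654 of 25308). Of all 25308 genes tested on day 4, 0.34% were called higher and 0.34% lower. The median log2 fold change of the members was -0.17 beside -0.0047 for all genes. Ccnd1, the cyclin D that carries growth signals into the cycle, passed the adjusted p but not the minimum fold: its levels were 18.9, 19.99, 18.7 and 19.8 CPM on day 4 and 24.1, 24.7, 25.1 and 25.6 CPM in the controls. Its 4 day 4 mice all lay below the 4 controls.

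On day 6, 35 members passed the filter (all but Ube2c), and 0 were called by edgeR or DESeq2. In edgeR 11 of the 35 had an unadjusted p under 0.05, beside 6076 of 25057 genes. Of 25057 genes, 0.647% were called higher and 0.678% lower, and the median of the members was 0.10 beside -0.018 for all genes. Ccne1, a cyclin E that starts replication, passed the adjusted p without the minimum fold, with 9.08, 8.35, 8.44 and 7.81 CPM on day 6 and 6.90, 6.204, 6.29 and 6.47 CPM in the controls. All 4 day 6 mice were above all 4 controls.

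On day 8, 35 members passed the filter (all but Ube2c), and the 12 calls are 34.3% of them. Of the 12, Bub1 and Melk passed the filter only through the day 8 mice, where they were high. Of 25085 genes, 2.15% were called higher and 1.84% lower. The median log2 fold change was 0.64 for the members and -0.025 for all genes. DESeq2 called 17 members.

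On day 13, all 36 members passed the filter, of which 36.1% were called higher and 11.1% lower. Bub1, Melk and Ube2c, all called higher, passed the filter only through the day 13 mice, where they were high. Of 24920 genes, 8.4% were called higher and 8.06% lower, so the share called lower was near that of all genes. The median log2 fold change was 0.50 for the members and -0.04 for all genes. DESeq2 also called 17.

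These counts depended on single mice. On day 8 they went from 12 to 2 without day 8 mouse A, 6 without day 8 mouse C, 6 without control A, 7 without control B, 3 without control C and 3 without control D, whereas 12 and 18 were called without day 8 mice B and D. On day 13 they went from 17 to 6 without control A, 8 without control C, 6 without control D and 7 without day 13 mouse B, and were between 12 and 18 without each of the others. Top2a was called on day 8 in all 8 fits that left out a mouse, Rrm2 and Kif23 in 7, Mki67 in 6 and Cenpf in 5, and each other member in 3 or fewer. On day 13, Mcm6, Ccnb1 and Cenpf were called in all 8, Kif23 in 7, and Pcna, Ccne2 and Smc2 in 6. Top2a was called there in 5 and each other member in 4 or fewer, with Tyms in 2 and Rrm2 in 1.

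The genes of chromosome structure moved in opposite directions. Top2a encodes the topoisomerase that untangles the chromosomes before they part. It was at 2.53, 3.23, 2.01 and 2.41 CPM in the controls, at 13.4, 4.74, 11.7 and 3.97 CPM on day 8 and at 3.41, 11.6, 4.83 and 4.34 CPM on day 13. Every day 8 and every day 13 mouse was above every control. The log2 fold change was 1.71 (SE 0.362, adjusted p = 0.0115) on day 8 and 1.22 (SE 0.353, adjusted p = 0.0305) on day 13 in edgeR's test. Before that, the 4 mice stood at 1.61, 1.13, 1.12 and 3.46 CPM on day 4 and at 3.57, 3.03, 3.49 and 2.81 CPM on day 6. On day 4, mice A, B and C were thus below the controls and mouse D above them, and on day 6 the groups overlapped. Day 4 mouse D also comes from another run of animal numbers than A, B and C, as described below.

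Smc2, a core subunit of condensin, was at 20.3, 18.1, 18.3 and 19.5 CPM on day 8, all within the range of the controls. On day 13 it was at 10.7, 15.4, 14.6 and 15.1 CPM against 21.3, 19.8, 17.9 and 20.7 CPM in the controls. It fell by 0.54 on the log2 scale (SE 0.126, adjusted p = 0.0135), and the groups did not overlap.

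Among the genes of licensing and the replication fork, Mcm6 was called lower and Pcna higher, both on day 13. Mcm6 is a subunit of the helicase that opens the origins, and it was at 17.6, 19.1, 15.1 and 17.1 CPM in the controls and at 7.81, 9.17, 8.86 and 11.6 CPM on day 13. All day 13 mice were below all controls, a fall by 0.90 on the log2 scale (SE 0.137, adjusted p = 0.00219). On day 8 Mcm6 was at 13.8, 12.5, 11.7 and 17.2 CPM, with a log2 difference of -0.33 that was not called. Pcna, the sliding clamp of the DNA polymerases, was at 13.3, 14.8, 13.4 and 15.4 CPM in the controls, at 20.6, 17.0, 19.5 and 16.8 CPM on day 8 and at 24.4, 24, 17.4 and 18.1 CPM on day 13. Its ranges lay above the controls on both days, with log2 fold changes of 0.36 (SE 0.085, adjusted p = 0.0183, under the minimum fold) and 0.54 (SE 0.126, adjusted p = 0.0131).

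The other helicase subunits among the members, Mcm2, Mcm3, Mcm5 and Mcm7, were called in no comparison of 2 groups, and their log2 differences from the controls ranged from -0.05 to 0.47 for day 8 and from -0.18 to 0.56 for day 13. Mcm4, a subunit in the list of further replication genes, had log2 differences of -0.03 and 0.22, not called. In the F test over the 5 groups without rapamycin, Mcm2 had an adjusted p of 0.00903 in edgeR. A test of the difference between the subunits was not made.

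Both genes of nucleotide supply were called. Rrm2, a subunit of ribonucleotide reductase that is made in dividing cells, was at 1.23, 1.10, 0.755 and 0.996 CPM in the controls, at 2.34, 1.35, 2.29 and 2.10 CPM on day 8 and at 1.14, 1.99, 1.93 and 1.80 CPM on day 13. On day 8 no mouse overlapped the controls, and on day 13 mouse A lay among them. The log2 fold changes were 0.97 (SE 0.217, adjusted p = 0.0150) and 0.73 (SE 0.231, adjusted p = 0.0432). Tyms, thymidylate synthase, was at 5.15, 4.99, 5.28 and 5.55 CPM in the controls and at 2.97, 4.54, 2.61 and 3.96 CPM on day 13. It fell by 0.59 on the log2 scale (SE 0.174, adjusted p = 0.0324), with no overlap.

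Of the 7 cyclins and their kinase, Ccna2, Ccnb1 and Ccnb2 were called higher on day 8, and on day 13 Ccnb1 and Cdk1 were called higher and Ccne2 lower. Ccnb1 encodes cyclin B, which brings cells into mitosis. It was at 0.697, 0.634, 0.425 and 0.230 CPM in the controls, at 1.79, 0.899, 1.46 and 0.732 CPM on day 8 and at 1.77, 2.68, 1.62 and 1.29 CPM on day 13. All 8 of these Tsc1-Cre+ mice were above the controls, with log2 fold changes of 1.28 (SE 0.363, adjusted p = 0.0412) and 1.87 (SE 0.340, adjusted p = 0.00454). On day 6 Ccnb1 was at 0.647, 0.848, 0.608 and 0.900 CPM, which overlapped the controls.

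Cdk1, the kinase partner of cyclin B, was at 0.330, 0.467, 0.377 and 0.421 CPM in the controls and at 0.584, 1.43, 0.653 and 0.634 CPM on day 13, with no overlap and a log2 fold change of 1.06 (SE 0.327, adjusted p = 0.0389). On day 8 it was at 1.65, 0.484, 1.37 and 0.311 CPM. There mice A, B and C were above all controls, B by little, and mouse D was below them, and the log2 difference of 1.23 (SE 0.465) was not called (adjusted p = 0.104).

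Ccna2, a cyclin of replication and early mitosis, was at 3.99, 2.75, 4.88 and 2.58 CPM on day 8 against 2.15, 1.99, 2.42 and 2.07 CPM in the controls, a log2 fold change of 0.70 (SE 0.200, adjusted p = 0.0416). Ccnb2, a further B-type cyclin, was at 1.90, 1.68, 1.48 and 1.13 CPM against 0.990, 0.884, 0.928 and 0.958 CPM, also 0.70 (SE 0.183, adjusted p = 0.0285). In both genes all day 8 mice were above all controls. On day 13 neither was called (log2 differences of 0.35 and 0.32).

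Ccne2, a cyclin E of the start of replication, was at 6.99, 7.69, 8.30 and 8.85 CPM in the controls, at 6.39, 5.46, 6.53 and 6.29 CPM on day 8 and at 6.15, 5.18, 5.65 and 5.33 CPM on day 13. It lay below the controls in all 8 mice and fell by 0.53 on the log2 scale on day 13 (SE 0.120, adjusted p = 0.0112). Ccne1 did not share this, with log2 differences of 0.31 on day 8 and 0.29 on day 13 that were not called, and Ccnd1 was at -0.07 and 0.15, also not called.

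Checkpoint and APC genes gave some of the largest fold changes, at low levels. Bub1b, a checkpoint kinase-like protein that holds back the APC, was at 0.275, 0.300, 0.409 and 0.230 CPM in the controls, at 1.99, 0.415, 1.99 and 0.421 CPM on day 8 and at 0.677, 1.39, 0.398 and 0.659 CPM on day 13. Mice A and C of day 8 were far above the controls while B and D were just above them, and on day 13 mouse C lay within the range of the controls. The log2 fold changes were 1.95 (SE 0.540, adjusted p = 0.0368) and 1.37 (SE 0.380, adjusted p = 0.0261).

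Bub1, the checkpoint kinase that acts at the kinetochore, was at 0.165, 0.384, 0.0943 and 0.172 CPM in the controls, at 1.28, 0.449, 0.975 and 0.366 CPM on day 8 and at 0.369, 0.989, 0.568 and 0.583 CPM on day 13. Control mouse B overlapped the lowest mouse of both days. On both days Bub1 passed the filter only through the Tsc1-Cre+ mice. The log2 fold changes were 1.88 (SE 0.495, adjusted p = 0.0301) and 1.61 (SE 0.450, adjusted p = 0.0270). Ube2c, the ubiquitin-conjugating enzyme of the APC, had 0 counts in control D, where 3 counts would be 0.0575 CPM, and 0.0367, 0.167 and 0.110 CPM in the other controls. On day 13 it was at 0.231, 0.597, 0.284 and 0.355 CPM, all above the controls, with a log2 fold change of 2.17 (SE 0.642, adjusted p = 0.0333). Its counts were 2, 10, 7 and 0 in the controls and 15, 70, 10 and 14 on day 13. Ube2c thus passed the filter only through the group that is high, which limits the call. Cdc20, the activator of the APC, was not called, with log2 differences of 0.70 on day 8 and 0.60 on day 13.

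Of the 6 mitotic kinases and passenger proteins, Birc5 and Melk were called on both days and Aurka on day 13. Birc5 (survivin), a passenger protein, was at 0.605, 0.584, 0.362 and 0.670 CPM in the controls, at 0.959, 0.968, 1.58 and 0.768 CPM on day 8 and at 0.784, 1.19, 1.02 and 1.12 CPM on day 13. It lay above the controls in all 8 mice, with log2 fold changes of 0.93 (SE 0.274, adjusted p = 0.0467) and 0.87 (SE 0.245, adjusted p = 0.0278).

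Melk, a kinase of dividing cells, was at 0.128, 0.300, 0.0943 and 0.115 CPM in the controls, at 0.959, 0.397, 0.638 and 0.201 CPM on day 8 and at 0.707, 0.810, 0.227 and 0.507 CPM on day 13. Only control mouse B reached the lower mice of these groups. The log2 fold changes were 1.75 (SE 0.514, adjusted p = 0.0466) and 1.82 (SE 0.468, adjusted p = 0.0193). On both days Melk passed the filter only through the Tsc1-Cre+ mice. Aurka, the kinase of the spindle poles, was at 1.85, 2.15, 1.64 and 1.55 CPM in the controls and at 7.27, 7.98, 2.24 and 2.66 CPM on day 13, with mice A and B high and C and D just above the controls. Its log2 fold change was 1.48 (SE 0.390, adjusted p = 0.0217). Day 13 mice A and B share a run of animal numbers to which C and D do not belong. Aurkb, Pbk and Plk1 were not called, and Aurkb, for example, had log2 differences of 1.55 on day 8 and 0.90 on day 13.

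Of the 8 genes of the spindle, kinetochore and cytokinesis, Cenpf and Kif23 were called on both days. Cenpf, a large protein of the outer kinetochore, was at 2.97, 2.62, 1.87 and 2.57 CPM in the controls, at 8.13, 3.75, 7.50 and 3.55 CPM on day 8 and at 3.81, 9.64, 5.54 and 4.56 CPM on day 13. Kif23, the motor of the central spindle, was at 0.825, 1.13, 0.975 and 0.728 CPM, at 2.88, 1.36, 2.40 and 1.56 CPM and at 1.52, 2.18, 1.70 and 1.34 CPM in the same groups. In both genes all 8 Tsc1-Cre+ mice were above all controls.

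On day 8 the log2 fold changes were 1.18 for Cenpf (SE 0.275, adjusted p = 0.0183) and 1.14 for Kif23 (SE 0.254, adjusted p = 0.0147). On day 13 they were 1.21 (SE 0.279, adjusted p = 0.0125) and 0.86 (SE 0.210, adjusted p = 0.0156). The motors Kif11 and Kif20a, the kinetochore motor Cenpe, and the microtubule binders Tpx2, Nusap1 and Prc1 were not called on either day, with log2 differences of 0.09 to 0.70 for day 8 and -0.19 to 0.60 for day 13.

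Mki67, which encodes the antigen Ki-67 used to mark proliferating cells, was at 12.1, 13.5, 10.97 and 14.7 CPM in the controls and at 23.4, 15.3, 24.02 and 18.1 CPM on day 8. All day 8 mice were above all controls, with a log2 fold change of 0.64 (SE 0.144, adjusted p = 0.0153). On day 13 it was at 10.4, 18.3, 14.7 and 15.1 CPM, with mouse A below the controls and mouse B above them, and it was not called (log2 difference 0.17).

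**Figure D2:**
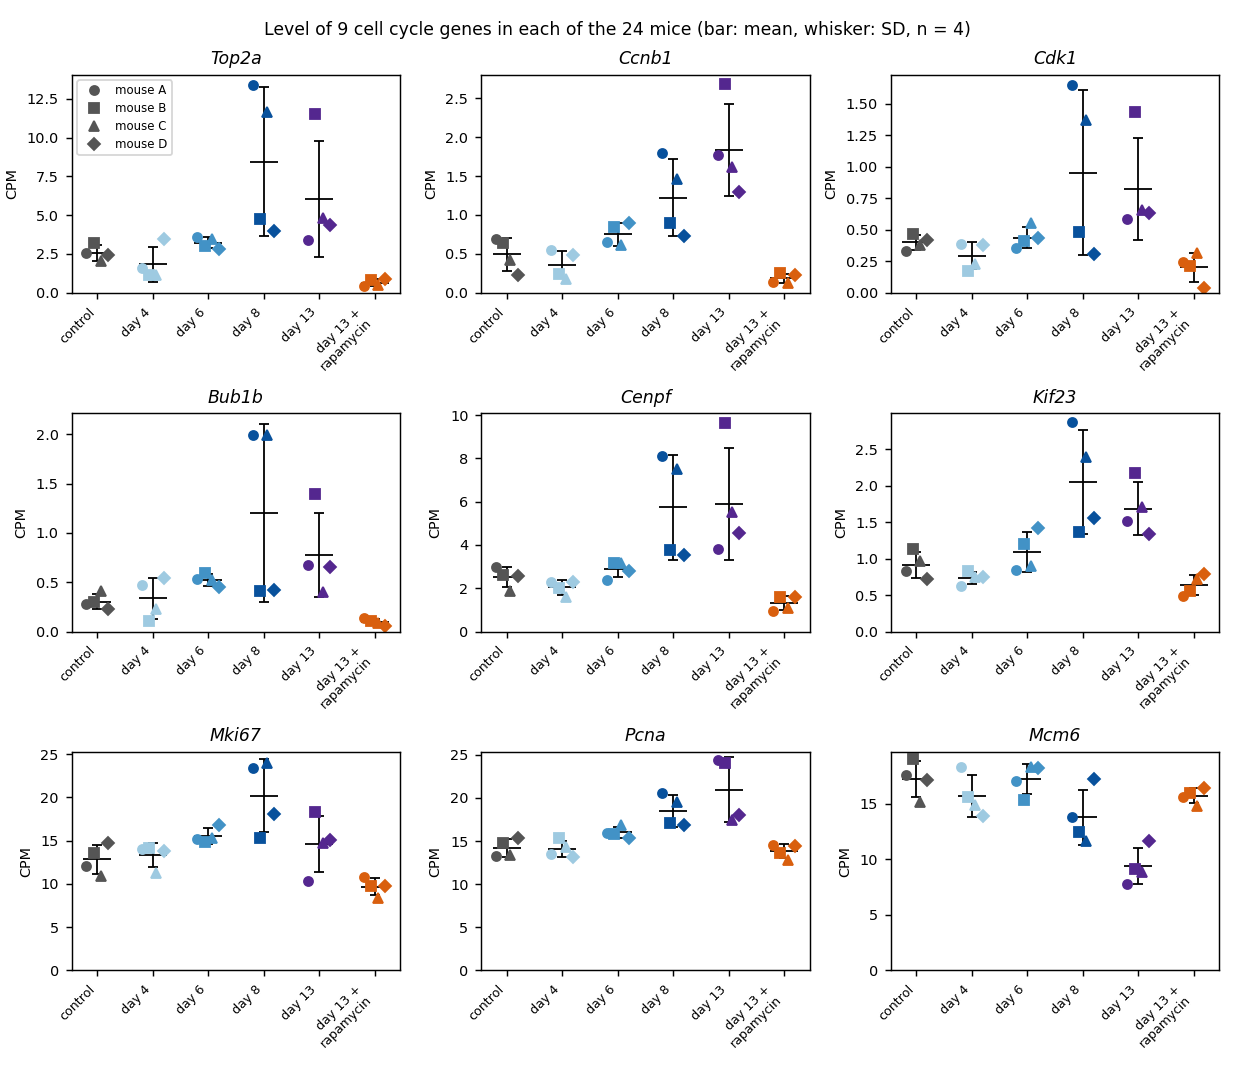
CPM (vertical axes, each from 0) of 9 members in the 24 mice by group, with a symbol for each mouse, a bar for the mean and whiskers for the SD. Day 8 mice A and C stand above B and D in the genes of mitosis, with Top2a at 13.4 and 11.7 against 4.74 and 3.97 CPM, while Mcm6 is lowest on day 13 and rapamycin mice lie at or below the controls in Top2a, Cdk1, Bub1b, Cenpf and Mki67.

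The members split the mice of a group in the same way. On day 8, mice A and C were both above mice B and D for 31 of the 36 members (86.1%), an order found in 23.7% of the 27439 genes with at least 10 counts in 4 mice, and the opposite order was found in 0 members and 20.2% of genes. Mouse A was above all controls for 30 members, mouse B for 21, mouse C for 31 and mouse D for 17, beside 31.3%, 29.5%, 32.2% and 26.1% of genes. The numbers of the animals fall into runs, and on day 8 and in the controls mice A and B belong to 1 run and C and D to another, so the split crosses the runs. In both runs 27 of the 36 members had a higher mean on day 8 than in the controls, with log2 ratios from -0.48 to 2.96 over all members. The 12 called members, whose direction these same mice had set, were among them, and for Top2a the ratios were 1.66 and 1.82. The other groups share no run with the controls, so run and group cannot be told apart there.

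On day 13, mouse B was the highest of its group for 31 members (86.1%) beside 29.9% of genes, and it is the deepest library. With all counts thinned to the smallest total, 12 members were called on day 13 in place of 17 and 7 on day 8 in place of 12. On day 4, mouse D was the highest for 20 members (55.6%) beside 26.2% of genes. It is also the only day 4 mouse of its run of animal numbers, so mouse and run cannot be told apart. Day 13 mice A and B share a run, and C and D each come from another.

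**Figure D3:**
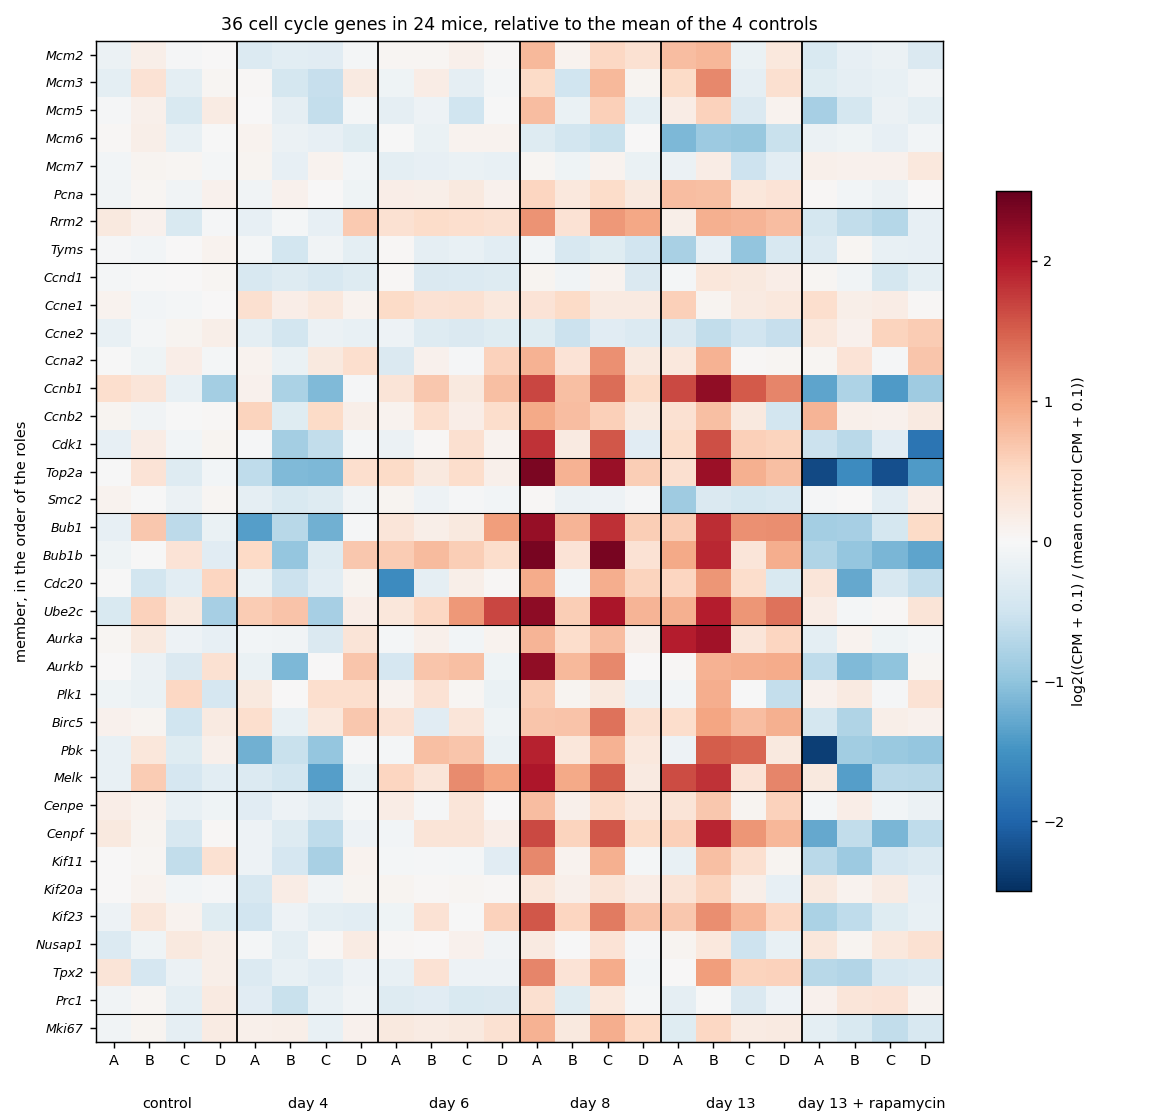
Each of the 36 members (rows, in the order of their roles) in each of the 24 mice (columns A to D of the 6 groups), as the log2 of CPM + 0.1 over the mean control CPM + 0.1 (colour). Day 8 mice A and C and day 13 mouse B are the reddest columns, and rapamycin mice are blue for Top2a, Bub1b, Cdk1 and Cenpf.

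Other readouts moved with this split. Kdr, a receptor of endothelial cells, was at 44.5, 28.1, 44.5 and 33.9 CPM on day 8 and at 33.8, 27.3, 23.98 and 21.2 CPM in the controls. Sox11, a transcription factor of immature neurons, was at 57.3, 25.8, 81.1 and 25.1 CPM on day 8 and at 24.2, 28.8, 33.1 and 28.6 CPM in the controls. Both were higher in day 8 mice A and C than in B and D, as the members were, and neither was called on day 8. Their part in the result was not tested.

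Over the whole marker lists, 0 of 6 endothelial, 0 of 6 microglial, 0 of 6 choroid plexus and 0 of 6 oligodendrocyte precursor markers were called higher on day 8 or day 13, and 1, Gpr17, was called lower on day 8. Of the 8 markers of neural progenitors and neuroblasts, 0 were called higher on day 8 and 1, Sox11, on day 13 (log2 fold change 1.74, adjusted p = 0.01), and their sum was 67.7 to 82.3 CPM in the controls, 80.5 to 126.8 CPM on day 8 and 85.4 to 201 CPM on day 13. The defining progenitor markers Eomes and Tfap2c were at or below 0.356 CPM in these 3 groups, and each was at 0 in at least 1 of their mice. The endothelial sum was 163 to 200.1 CPM in the controls, 165 to 207 CPM on day 8 and 169.7 to 223 CPM on day 13, and the microglial sum was 172 to 208 CPM, 154 to 169 CPM and 146 to 199 CPM. The precursor sum was 211 to 242 CPM, 183 to 213 CPM and 143 to 264 CPM in the same groups. Of the 6 blood markers, 3 of the 4 that passed the filter were called lower on day 4 and 3 of 5 on day 6. On day 8 it was 0 of 4, and on day 13 it was 4 of 4. Choroid plexus sums ranged from 39.3 to 1683 CPM over the 24 mice.

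Levels compared per kilobase of exon set the members apart before any change. In the controls the highest were Pcna at 5.93, Ccnd1 at 5.28, Mcm6 at 3.69 and Smc2 at 3.64 CPM per kilobase, and the lowest were Ube2c at 0.0301, Bub1 at 0.0468, Melk at 0.0537 and Bub1b at 0.0710. Of the 12 members with the highest level, from 0.849 CPM per kilobase, 1 was called higher on day 8 (Mki67) and 1 on day 13 (Pcna), and all 4 calls of a lower level on day 13 were among them. Of the other 24, 11 were called higher on day 8 and 12 on day 13. The control level enters both quantities, so this is given as a description.

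**Figure D4:**
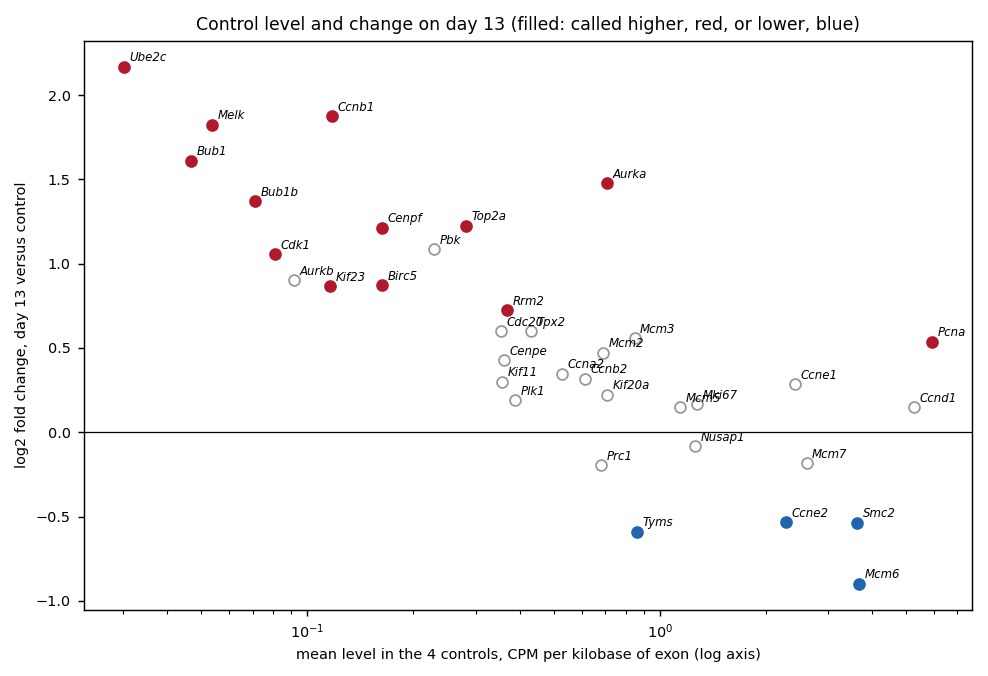
Log2 fold change on day 13 (vertical axis) against the mean level in the 4 controls in CPM per kilobase of exon (horizontal axis, logarithmic) for the 36 members. The members with low control levels, such as Ube2c at 0.0301, lie above 0, and the 4 called lower, Tyms, Ccne2, Smc2 and Mcm6, lie at 0.861 or higher.

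Across the 5 groups without rapamycin, 23 of the 36 members (63.9%) differed in edgeR's F test on 20 mice, beside 34.4% of 26815 genes. Bub1, Melk and Ube2c are among them and passed the filter only through groups where they were high. The smallest adjusted p-values were those of Mcm6 (0.000146), Ccnb1 (0.000216), Kif23 (0.000307), Cenpf (0.000388) and Pcna (0.000684). The mean was lowest on day 4 for 18 members (50%, beside 18.2% of genes) and highest on day 8 for 19 members (52.8%, beside 11.4% of genes). The ratio of the highest to the lowest group mean was 4.61 for Top2a, 5.08 for Ccnb1 and 6.91 for Melk. DESeq2 found 27 members.

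Successive days were also compared. From day 4 to day 6 Melk was the single member called of 36, with 0.105, 0.0881, 0 and 0.133 CPM on day 4 (3 counts would be 0.0481 CPM in mouse C) and 0.275, 0.220, 0.486 and 0.412 CPM on day 6. The groups did not overlap, and the log2 fold change was 2.06 (SE 0.541, adjusted p = 0.0467), beside 0.246% of 25184 genes called higher and 0.357% lower. The counts of Melk were 6, 5, 0 and 8 on day 4 and 14, 14, 28 and 22 on day 6. Melk thus passed the filter only through day 6, the group that is high, which limits the call. This call was lost in 7 of the 8 fits without 1 mouse and with all 24 mice in 1 fit, and DESeq2 called 0 members. Ranges lay apart and higher on day 6 for 9 members (Mcm2, Pcna, Ccnb1, Bub1, Melk, Cenpe, Cenpf, Kif23 and Mki67), 25% of members beside 7.52% of genes. Of these, Bub1 also passed the filter only through the day 6 mice.

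From day 6 to day 8 edgeR called 0 members, with 20 at an unadjusted p under 0.05 beside 4264 of 24871 genes, and DESeq2 called 3. Of 24871 genes, 0.181% were called higher and 0.0482% lower. Ranges lay apart and higher on day 8 for 6 members (Mcm7, Top2a, Aurka, Birc5, Cenpf and Kif20a), 16.7% of members beside 6.34% of genes. From day 8 to day 13 edgeR called 0 members and 0% of 24747 genes higher or lower, and DESeq2 called 0 members. In edgeR 3 members had an unadjusted p under 0.05, beside 3479 of the 24747 genes. The log2 difference of Top2a was -0.49 (SE 0.471) between these days, which does not show that its levels were alike.

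Under rapamycin, the values that drew attention to these genes are given as a description, with no test. Top2a was at 0.451, 0.788, 0.478 and 0.893 CPM in the 4 rapamycin mice, below every one of the other 20 mice. That is a log2 difference of -1.93 from the controls and of -3.17 from day 13 without rapamycin. Tsc1 was at 66.0 to 68.9 CPM in these mice and at 57.4 to 68.9 CPM on day 13 without rapamycin. The rapamycin and control groups differ in genotype, in day and in rapamycin, so these cannot be told apart in that comparison, and both comparisons of the rapamycin group use the same 4 mice.

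Cenpf was at 0.971, 1.61, 1.08 and 1.58 CPM, Bub1b at 0.139, 0.107, 0.0832 and 0.0609 CPM, and Cdk1 at 0.243, 0.215, 0.312 and 0.0406 CPM in the rapamycin mice. In all 3 genes each rapamycin mouse was below each control. The log2 differences from the controls were -0.91, -1.67 and -0.99, and those from day 13 were -2.14, -3.05 and -2.05. Pbk, a mitotic kinase, had 0 counts in rapamycin mouse A, where 3 counts would be 0.104 CPM, and 0.179, 0.166 and 0.162 CPM in the others, against 0.315 to 0.517 CPM in the controls. In both comparisons Bub1b, Cdk1 and Pbk passed the filter only through the mice without rapamycin, where they were high.

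Against the controls, 33 members passed the filter (Bub1, Ube2c and Melk did not). Ranges lay apart and lower for 7 (Mcm2, Cdk1, Top2a, Bub1b, Pbk, Cenpf and Mki67) and apart and higher for 2 (Mcm7 and Ccnb2). These are 21.2% and 6.06% of the members, beside 6.2% and 5.7% of all genes. Of the 7, Cdk1, Bub1b and Pbk passed the filter only through the controls, where they were high, which limits the count. Mki67 was at 10.8, 9.78, 8.36 and 9.76 CPM in the rapamycin mice, just under the lowest control at 10.97 CPM. The median log2 difference was -0.19 for the members and 0.0058 for all genes, and -0.09 with thinned counts.

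Against untreated day 13, 35 members passed the filter (Melk did not). Ranges lay apart and lower for 15 (42.9%, beside 17.7% of all genes). Of the 15, Ccnb1, Cdk1, Bub1, Bub1b, Ube2c and Pbk passed the filter only through the day 13 mice, where they were high. This limits the count of 15. Ranges lay apart and higher for 4 (Mcm6, Ccne2, Smc2 and Prc1). These are 11.4% of the members, a smaller share than the 15% of all genes. Mcm6, for example, was at 15.6, 15.9, 14.8 and 16.4 CPM under rapamycin, and Ccne2 at 9.57, 8.596, 11.8 and 12.5 CPM. The median log2 difference was -0.76, and it was -0.50 without day 13 mouse B.

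Not all members were low under rapamycin. Aurka was at 1.49, 1.92, 1.66 and 1.75 CPM and Pcna at 14.5, 13.6, 12.8 and 14.4 CPM, both overlapping the controls. Beside these values, all 6 microglial markers and 4 of 6 endothelial markers lay below the controls with no overlap, with sums of 126 to 145 CPM and 131 to 139 CPM under rapamycin. Kdr was at 12.2, 12.7, 11.3 and 11.9 CPM under rapamycin and at 21.2 to 33.8 CPM in the controls. Oligodendrocyte precursor markers summed to 187 to 202 CPM, with 2 of 6 apart and lower. The part of these cell types in the low levels of the members was not tested.

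Another 141 genes of the cell cycle were taken from 5 lists. In the list of 59 further mitosis genes, of which 57 passed the filter on each day, 7 were called higher and 1 lower on day 8, and 8 higher and 1 lower on day 13, with medians of 0.51 and 0.44 on the log2 scale. The shares called higher were 12.3% and 14% beside 2.15% and 8.4% of all genes, and those called lower were 1.75% on each day beside 1.84% and 8.06%. Ncapg, a subunit of condensin, was at 1.27 CPM on average in the controls and at 2.21 and 2.13 CPM on the 2 days, and Kif22, a chromosome motor, at 6.26, 9.03 and 9.16 CPM. Both were called on both days (log2 fold changes of 0.79 and 0.74, and of 0.51 and 0.53).

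Spag5, which encodes a spindle-associated protein, moved the other way from day 4 on. It was at 13.4, 12.8, 15.1 and 14.4 CPM in the controls, at 7.76, 7.21, 9.30 and 6.21 CPM on day 4 and at 4.23, 6.01, 4.74 and 4.18 CPM on day 13. All Tsc1-Cre+ mice without rapamycin were below the controls, and it fell by 0.87 (adjusted p = 0.00155), 1.02 (1.23e-05), 1.12 (0.000602) and 1.56 (0.000246) on the log2 scale on the 4 days in edgeR's test. Under rapamycin it was at 12.7, 14.1, 10.8 and 14.2 CPM. Fam83d, a spindle-associated gene, was at 4.28, 3.81, 6.13 and 4.03 CPM on day 4 against 1.19, 2.57, 1.64 and 1.97 CPM in the controls (log2 fold change 1.31, adjusted p = 0.0072), and it was called again on day 13 (1.47, adjusted p = 0.00738).

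Of 42 further replication genes, 3 were called higher on day 8 and 4 on day 13, and 0 lower. These are 7.14% and 9.52%, and the day 13 share is near the 8.4% of all genes. Cdt1, which loads the helicase, had log2 fold changes of 1.26 and 1.42, Chaf1b, a chromatin assembly factor, 1.72 and 1.53, and Dbf4, the activator of the kinase that fires origins, 0.91 and 1.23. Dbf4 was also called on day 6, at 0.54 (adjusted p = 0.0455). Gins1, a helicase cofactor, was called on day 13 only of these days, at 0.60. The median of the list was 0.10 on day 8 and 0.06 on day 13.

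Of 8 CDK inhibitors, 7 passed the filter, and 1 was called on day 8 and 2 on day 13, all higher (14.3% and 28.6%, beside 2.15% and 8.4% of all genes, from few genes). Cdkn1a encodes p21, which arrests the cycle. It was at 0.825, 1.27, 1.01 and 0.958 CPM in the controls, at 4.403, 1.66, 5.29 and 1.17 CPM on day 8 and at 29.3, 16.9, 3.04 and 4.34 CPM on day 13. Day 8 mice A and C were again the high ones, and on day 13 mice A and B, which share a run of animal numbers. The log2 fold changes were 1.603 (adjusted p = 0.0302) and 3.70 (adjusted p = 0.00459), and the rapamycin mice were at 3.33, 3.33, 3.87 and 2.68 CPM, above the controls. Cdkn2b was at 0.830, 0.716, 0.795 and 0.761 CPM on day 13 against 0.422, 0.434, 0.613 and 0.402 CPM (0.70, adjusted p = 0.0404).

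Of 13 further cyclins, kinases and phosphatases, 0 were called on day 8, and on day 13, 4 were called higher, among them Ccnd2 (log2 fold change 0.55), Cdk2 (0.67) and Ccnf (1.04), and 1 lower, the phosphatase Cdc25b (-0.91). These are 30.8% and 7.69%, beside 8.4% and 8.06% of all genes. On day 8, 4 of them had an unadjusted p under 0.05 in edgeR, beside 7260 of 25085 genes. Of 19 E2F, RB and other regulators, 0 were called on day 8, with 12 at an unadjusted p under 0.05, and on day 13 E2f3 (0.62), E2f4 (0.63), E2f7 (0.83) and Lin54 (0.50), a subunit of the complex that binds CHR elements, were called higher (21.1%, beside 8.4% of all genes) and 0 lower.

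Some values depend on how reads over shared exons were assigned. The exons of 10 members overlap a gene on the other strand in the annotation, and 3 of these were called: Ccne2 (overlapped by Ints8), Ccna2 (Exosc9) and Ube2c (Tnnc2). Whether the counting used strand is not given in the sources used here, so reads of these partners may not be told apart. On the same strand, Mcm7 holds Mir25 and Mir93, and Top2a holds Gm23451.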

How the data were processed

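The members and all gene lists were chosen with earlier results of these data known. RNA was from TruSeq Stranded Total RNA libraries. The authors trimmed reads with cutadapt 1.16.5, aligned them to mouse GRCm38 with STAR 2.7.2b and counted genes with featureCounts 1.6.4, and deposited raw counts per gene, 1 file per mouse. Between 62.5% and 65.7% of counts from 1 to 20 were even in each library, so mates of a pair may have been counted separately, and p-values and limits then rest on fewer fragments than counts.

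Groups came from the labels. Genes passing filterByExpr (minimum count 10) were tested with edgeR 4.0.16 (R 4.3.3), TMM and quasi-likelihood, on the 8 mice of each comparison, with Benjamini-Hochberg adjustment over all genes tested. An F test used the 5 groups without rapamycin. Symbols and exon lengths came from GENCODE M21. Named members were those called in a tested comparison or leading their role group in the F test, and of each further list at most 4 genes, those called most often (ties by the F test). Other members and markers are named with their values, after these were seen. Rapamycin contrasts chose the genes and were not tested. Nothing states separate litters or batches per mouse. Alternatives were DESeq2 1.42.0, other scaling, filters and fits, and leaving out each mouse. The tests were also checked on simulated data.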

Additional observations from a re-analysis of the deposited data

Results flagged for a closer look

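Of 216 sets of 4 mice (36 members in 6 groups), 11 held a mouse that stood apart by Dixon's ratio (5.09%), 7 high and 4 low, and chance gives about 1 in 20. The high ones were Rrm2 in day 4 mouse D (1.66 CPM, others 0.866 to 0.987), Ccnd1 in day 6 mouse A (25.3 CPM, others 19.3 to 19.8), Ccnb2 in rapamycin mouse A (1.77 CPM, others 1.02 to 1.12) and Cdk1 in day 13 mouse B (1.43 CPM, others 0.584 to 0.653). Bub1 in day 6 mouse D (0.525 CPM, others 0.236 to 0.275), Melk in control B (0.3 CPM, others 0.0943 to 0.128) and Tpx2 in day 6 mouse B (2.64 CPM, others 1.76 to 1.84) were also high. The low ones were Aurkb in day 13 mouse A (0.277 CPM, others 0.58 to 0.609), Kif11 in day 6 mouse D (2.17 CPM, others 2.55 to 2.62), Mki67 in day 4 mouse C (11.3 CPM, others 13.8 to 14.2) and Pbk in rapamycin mouse A (0 CPM, others 0.162 to 0.179).

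Melk differed between day 4 and day 6 in the test of that difference, with a log2 fold change of 2.06 that rests on low counts and was lost under most alternatives. It passed the filter only through the day 6 mice, which are the high ones.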

How the results depend on the processing

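The number of members called on day 8 was 12, and it was 8 to 17 with DESeq2, its size factors, no filter, all 24 mice in 1 fit, no minimum fold, the replicate block or a block for the run of animal numbers, and 7 with counts thinned to the smallest total, an alternative chosen after seeing the data. On day 13 it was 17, and 12 to 17 under these settings. Without a minimum fold, 1 member was called on day 4 and 1 on day 6. From day 4 to day 6 the 1 call became 0 with DESeq2, with all 24 mice, with the replicate block and with thinned counts, and 5 without the filter. From day 6 to day 8, 0 became 3 with DESeq2 and 1 without the filter, and from day 8 to day 13, 0 became 2 with all 24 mice in 1 fit. The median log2 difference of rapamycin from day 13 was -0.54 with thinned counts. The cause was not tested.

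Without each mouse in turn, the counts were 0 to 1 on day 4 (1 without day 4 mouse D), 0 to 1 on day 6 (1 without control B), 2 to 18 on day 8, 6 to 18 on day 13, 0 to 4 from day 4 to day 6 (4 without day 4 mouse D) and 0 to 3 from day 6 to day 8 (1 without day 8 mouse B and 3 without day 8 mouse D). The F test gave 20 to 25 members. The median under rapamycin was -0.27 to -0.16 against the controls and -0.89 to -0.50 against day 13.

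The mouse letters do not pair the animals: the correlations of same-letter deviations were -0.317 to 0.218, and in no comparison were all above 0.1. With the replicate block, 8 members were called on day 8, 14 on day 13 and 0 from day 4 to day 6, and 22 differed in the F test. Of the values of single members under the alternatives, 378 kept direction and side of the threshold, 7 newly passed it, 128 no longer passed it and 0 changed direction. Members under 1 CPM, such as Ube2c, Bub1 and Melk, rest on few counts in each mouse.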
